A study of Mus musculus with 4 samples.

Results

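The 34 genes described here encode the enzymes that carry glucose to pyruvate and lactate, the transporters that bring glucose in and move lactate across the membrane, and a few enzymes at the pathway's branch points. They were listed by symbol, with no threshold on measured values though with earlier results of these data known, and all 34 of the 34 listed symbols were among the 27998 genes of the count matrix. The RNA came from leukocytes enriched from tumours of B16-F10, a melanoma line of the mouse, which had been implanted with matrigel in C57BL/6 mice and were taken on day 14. The labels describe 2 samples as Adar1 null and 2 as control, a genotype that belongs to the implanted tumour cells, whereas the leukocytes are host cells; how the null line was made, and whether it was 1 clone, is not given in the sources used here. Adar1 is the RNA-editing deaminase encoded by Adar. All 4 samples shared the line, the strain, the matrigel, the day, a collagenase P and DNase I digestion of 10 minutes at 37 °C, a density gradient and magnetic selection for CD45 (encoded by Ptprc), and droplet-based 3′ sequencing in which each unique molecular identifier (UMI) marks 1 captured transcript.

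Glucose enters cells through facilitative transporters, hexokinases trap it by phosphorylation, and phosphofructokinase commits it to glycolysis; lactate dehydrogenase then turns pyruvate into lactate, which leaves or enters with a proton through monocarboxylate transporters. Most steps are served by several isoforms whose use differs between tissues, and many of these genes are known targets of hypoxia-inducible factor, the transcription factor that acts when oxygen is scarce. Activated T cells and inflammatory macrophages are known to raise glycolysis, and tumour cells often run it at a high rate.

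The deposited barcodes carry the group but no replicate number, so the Adar1-null libraries are named S1 and S2 here and the control libraries S3 and S4. Together 8562 cells were kept, between 1930 and 2745 per library, with a median of 7595.5 to 8785.0 UMIs per cell. Cells were clustered without the 34 genes and the other pathway genes named below, and the clusters were then named from markers. Melanoma-like cells numbered 1233, T cell-like cells 1327 and monocyte or macrophage-like cells 5175. The 10 melanoma markers summed to between 8259 and 8894 CPM (a gene's UMIs divided by all UMIs of that class and library and scaled to the common total that CPM uses) in melanoma-like cells, against 53 to 88 in T cell-like and 211 to 372 in monocyte or macrophage-like cells. Ptprc stood between 2.44 and 4.08 CPM in melanoma-like cells and between 251.3 and 286.1 in T cell-like cells, the marker used for the selection. S4 stood apart in its haemoglobin and other erythroid transcripts, at 768 CPM in monocyte or macrophage-like cells against 2 to 4 in the other libraries, and it held 710 of the 984 Folr2 and Cbr2 macrophage-like cells. Between 3 and 10 barcodes were shared by any pair of libraries. Whether each library was a separate animal is not stated, and the p-values below therefore describe only the spread from library to library.

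The summed level of the 34 genes was highest in monocyte or macrophage-like cells, at 8297 ± 218 CPM (SD, n = 4 libraries), followed by T cell-like cells at 6817 ± 501 and melanoma-like cells at 4533 ± 158. Counted per cell, the order turned: a melanoma-like cell held 149 ± 13.3 UMIs of these genes, against 70.1 ± 6.3 in monocyte or macrophage-like and 69.7 ± 9.71 in T cell-like cells, because melanoma-like cells were deeper (median 29397 to 34965 UMIs, against 6481 to 7946 and 7502 to 9666). All comparisons below are of a gene's proportion among the UMIs of its class. A 3′ tag is counted once per transcript, so gene length does not enter. In sums like these, a change in the level per cell and a change in the mix of cells within a class cannot be told apart.

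Summed counts were compared with edgeR's quasi-likelihood test with the library as a term, and a gene was called at a Benjamini-Hochberg adjusted p under 0.05 over 12878 genes. Against T cell-like cells, melanoma-like cells had 7 members higher and 22 lower, with 5 not called, where 77.6% of all genes were called (40.2% higher, 37.5% lower). Against monocyte or macrophage-like cells they had 6 higher and 26 lower, where 82.5% of all genes were called (42.3% higher, 40.2% lower). Monocyte or macrophage-like cells had 19 members higher and 8 lower than T cell-like cells, where 67.2% of all genes were called (35.0% higher, 32.2% lower). With most genes called between classes, these shares are near the background, and the direction is what the members add: their median log2 differences were -0.86, -1.01 and 0.41, beside 0.06, 0.04 and 0.05 over all genes tested. The fitted differences use TMM scaling, which lines up the bulk of genes and so moves them from the ratio of the printed CPM. On plain CPM the melanoma-like differences lie higher by 0.33 (against T cell-like) and 0.51 (against monocyte or macrophage-like cells), and those of monocyte or macrophage-like from T cell-like cells lie lower, with a shift of -0.19. The counts were then 11 higher and 20 lower, 7 higher and 21 lower, and 17 higher and 10 lower. Of the called members, Tpi1 (0.07, against T cell-like cells), Hk2 (0.12) and Pdk3 (0.05, both against monocyte or macrophage-like cells) turned sign on plain CPM and were not called.

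**Figure D1:**
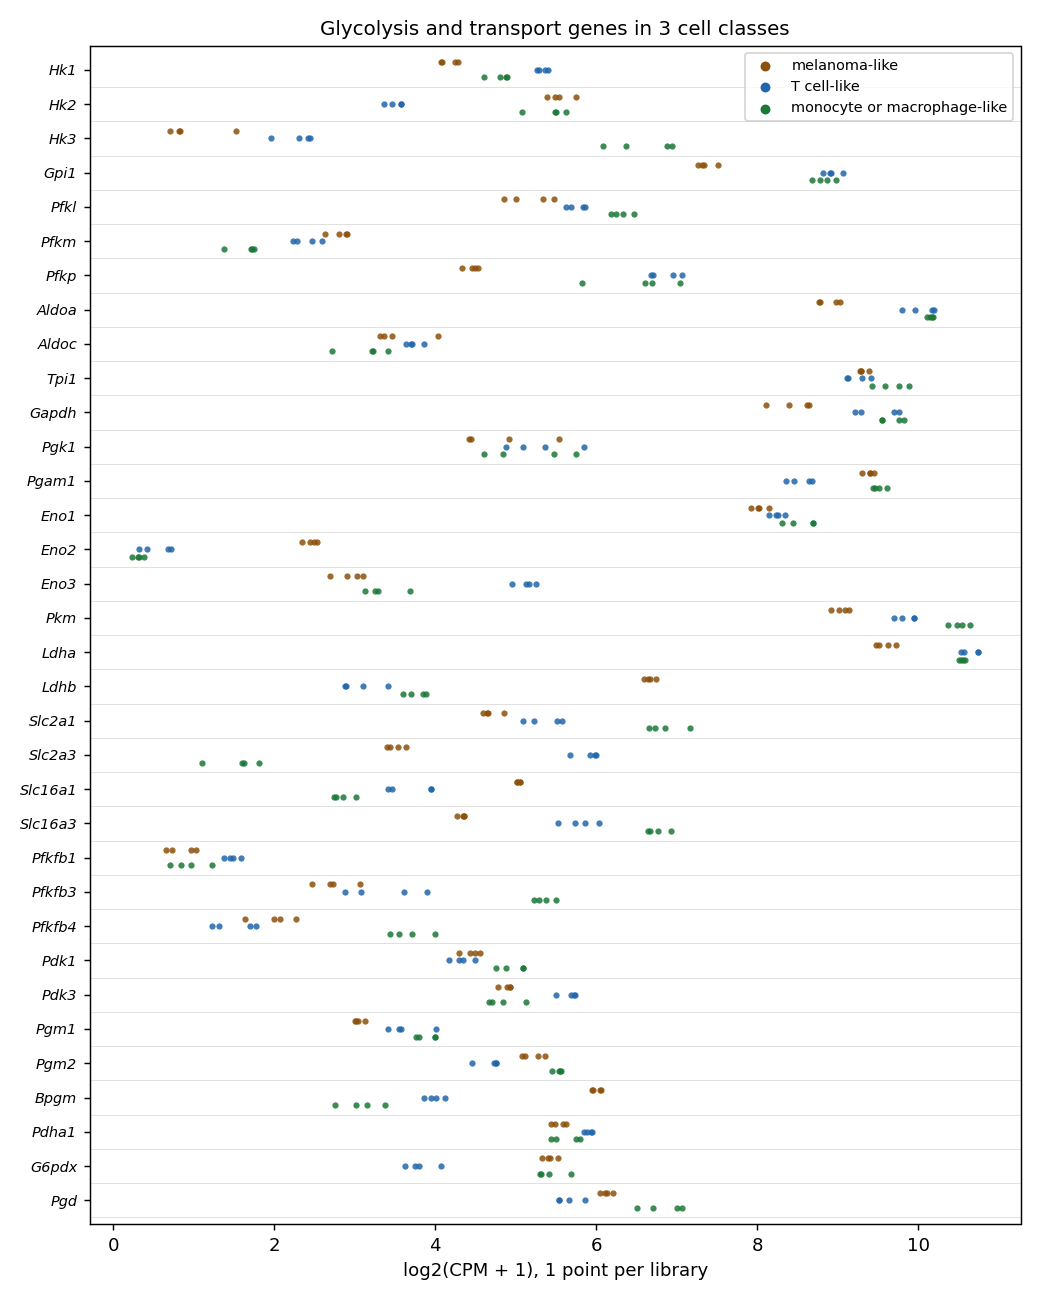
Level of each of the 34 genes as log2(CPM + 1) on the horizontal axis, 1 point per library and colour by cell class. Most enzymes lie to the left in melanoma-like cells, while Ldhb, Bpgm, Eno2 and Slc16a1 lie to the right there.

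The glucose transporters differed between all 3 classes. Slc2a1 encodes GLUT1, the widely expressed basal glucose transporter, and Slc2a3 encodes the high-affinity GLUT3 (Slc2a1 at chr4:119108711-119137983 and Slc2a3 at chr6:122727809-122801640, GRCm38). In S1 to S4, Slc2a1 stood at 114.5, 99.9, 105.3 and 142.6 CPM in monocyte or macrophage-like cells, at 33.0, 46.9, 44.8 and 36.4 in T cell-like cells and at 24.2, 23.2, 27.9 and 23.9 in melanoma-like cells. The 3 classes did not overlap in any library. Slc2a3 was highest in T cell-like cells and lowest in monocyte or macrophage-like cells, at 50.3, 59.7, 62.6 and 62.8 CPM in T cell-like cells, 9.88, 9.54, 10.6 and 11.5 in melanoma-like cells and 2.05, 2.503, 1.16 and 2.09 in monocyte or macrophage-like cells. The log2 difference of Slc2a3 between monocyte or macrophage-like and T cell-like cells was -4.75 ± 0.17 (SE, adjusted p = 1.99e-12), and that of Slc2a1 was 1.70 ± 0.14 (adjusted p = 1.43e-07). As a share of the UMIs of both transporters, Slc2a1 made up 98.3% ± 0.577 in monocyte or macrophage-like cells, 70.5% ± 2.08 in melanoma-like cells and 40.5% ± 3.1 in T cell-like cells (SD, n = 4).

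Hexokinases, which phosphorylate glucose on entry, showed a different isoform in front in each class. Hk1, the constitutive mitochondria-bound form, held 73.5% of hexokinase UMIs in T cell-like cells, at 40.3, 41.2, 38.1 and 37.3 CPM. Hk2, the inducible form typical of muscle and tumours, held 71.6% in melanoma-like cells, at 40.8, 44.0, 45.6 and 52.8 CPM, against 19.3% in T cell-like cells. Hk3, a form found mainly in myeloid cells, held 57.5% in monocyte or macrophage-like cells, at 81.9, 121.4, 116.6 and 67.0 CPM. All 4 libraries placed the same isoform first in each class. Hk2 itself was at a like CPM in monocyte or macrophage-like cells, at 44.3, 32.8, 48.2 and 44.0, which overlapped melanoma-like cells. Its fitted difference was -0.40 ± 0.10 (melanoma less monocyte or macrophage, adjusted p = 0.00207) and turned to 0.12 on plain CPM. Hk3 in T cell-like cells stood at 3.67% to 4.81% of its monocyte or macrophage-like level, where C1qa, C1qb, C1qc and Lyz2 stood at 2.93% to 4.45% of theirs, and in melanoma-like cells at 0.524% to 1.61% beside 0.89% to 1.69%. These ranges overlap in both classes, and the part of macrophage RNA in the Hk3 counts there was not tested.

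Of the phosphofructokinases, the enzymes of the committing step, Pfkp (platelet form) led in T cell-like cells with 66.6% of UMIs and Pfkl (liver form) led in melanoma-like cells with 56.5%. Pfkp stood at 101.2, 123.2, 132.8 and 103.6 CPM in T cell-like cells and at 22.1, 21.0, 21.6 and 19.2 in melanoma-like cells, a log2 difference of -2.77 ± 0.16 (melanoma less T cell, adjusted p = 1.53e-08). Pfkl stood at 87.3, 79.4, 72.0 and 74.7 CPM in monocyte or macrophage-like cells, above T cell-like cells (48.5, 56.3, 57.2 and 50.5) and melanoma-like cells (39.6, 27.97, 43.6 and 31.1) in every library. In monocyte or macrophage-like cells Pfkp ranged from 55.7 CPM in S4 to 130.4 in S2, and its share was 53.4% against 45.4% for Pfkl. Pfkm, the muscle form, was minor throughout, at 9.69% of the family in melanoma-like, 2.5% in T cell-like and 1.22% in monocyte or macrophage-like cells.

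Lactate handling set melanoma-like cells apart. Slc16a1 encodes MCT1, which carries lactate in either direction, and Slc16a3 encodes MCT4, a lower-affinity carrier known for export from highly glycolytic cells. Slc16a1 stood at 32.2, 31.3, 31.5 and 32.1 CPM in melanoma-like cells, against 10.0, 14.4, 14.4 and 9.65 in T cell-like and 7.10, 6.26, 5.70 and 5.84 in monocyte or macrophage-like cells. Slc16a3 ran the other way, at 108.3, 120.7, 100.6 and 99.2 CPM in monocyte or macrophage-like cells, 45.1, 57.0, 64.6 and 52.5 in T cell-like cells and 19.5, 19.3, 19.5 and 18.3 in melanoma-like cells. The groups of 4 libraries did not overlap for either gene. MCT1 thus made up 62.4% ± 0.877 of the pair in melanoma-like cells, 18.0% ± 1.89 in T cell-like cells and 5.5% ± 0.507 in monocyte or macrophage-like cells. The melanoma-like value is that of the whole class. In the smaller melanoma-like cluster described below, which was led by Car6, MCT4 held the larger share. The log2 differences of melanoma-like from monocyte or macrophage-like cells were 1.84 ± 0.13 for Slc16a1 (adjusted p = 2.76e-09) and -2.99 ± 0.10 for Slc16a3 (adjusted p = 3.34e-13).

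Ldhb, the lactate dehydrogenase subunit usually linked with lactate use, was the member most raised in melanoma-like over T cell-like cells, by 3.39 ± 0.13 on the log2 scale (adjusted p = 2.97e-12). It stood at 106.2, 95.5, 100.3 and 99.3 CPM in melanoma-like cells, 7.57, 9.67, 6.36 and 6.44 in T cell-like cells and 13.4, 11.1, 11.9 and 13.8 in monocyte or macrophage-like cells. Ldha, the subunit that favours lactate formation, was still the main form everywhere, with 88.4% of the pair in melanoma-like, 99.5% in T cell-like and 99.2% in monocyte or macrophage-like cells. Ldha itself was lower in melanoma-like cells (786.7, 713.4, 846.1 and 730.1 CPM) than in T cell-like cells (1516, 1714, 1709 and 1477) or monocyte or macrophage-like cells (1535, 1502, 1454 and 1472). The last 2 classes overlapped, with a log2 difference of 0.08 ± 0.07 (adjusted p = 0.292; -0.10 on plain CPM). Melanoma markers stood at 0.594% to 0.99% of their level in T cell-like cells, below the 6.34% to 10.1% of Ldhb there.

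**Figure D2:**
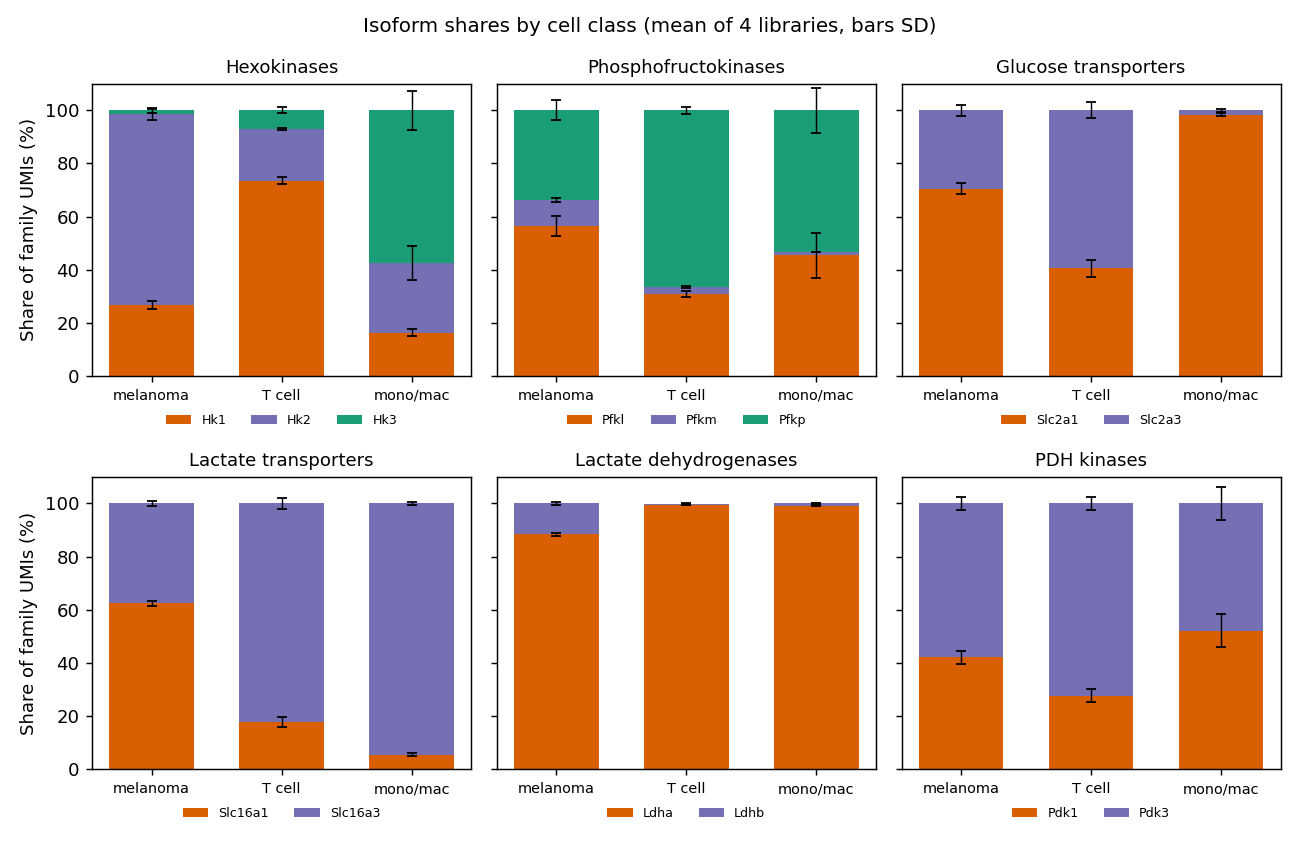
Share of each isoform among the UMIs of its family in percent (vertical axis) in melanoma-like, T cell-like and monocyte or macrophage-like cells; bars are means of 4 libraries and error bars are SD. Hk1 leads in T cell-like, Hk2 in melanoma-like and Hk3 in monocyte or macrophage-like cells, and Slc16a1 leads in melanoma-like cells alone.

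Shares were compared library by library with an exact two-sided sign-flip permutation test, whose smallest p with 4 libraries is 0.13 after rounding. Over 72 pairs of classes and isoforms, 11 isoforms differed by 20 percentage points or more between at least 1 pair of classes: Hk1, Hk2, Hk3, Pfkl, Pfkp, Slc2a1, Slc2a3, Slc16a1, Slc16a3, Pdk1 and Pdk3. Each of those large differences had the same sign in all 4 libraries, exact p = 0.13 and adjusted p = 0.132, so this test could not reach 0.05. The pyruvate dehydrogenase kinases, which restrain entry of pyruvate into mitochondria, differed least of these: Pdk1 held 52.1% of the pair in monocyte or macrophage-like cells and 27.8% in T cell-like cells. Pdk1 stood at 33.2, 25.9, 28.3 and 33.0 CPM and at 21.5, 17.1, 19.4 and 18.7 in those classes. Pdk3 stood at 27.7, 33.9, 25.2 and 24.3 CPM in monocyte or macrophage-like cells, below the 50.6, 52.3, 51.9 and 44.4 of T cell-like cells in every library.

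Several of the most abundant members were among the single-isoform enzymes and the leading forms of the remaining families. By the fit, melanoma-like cells were lower than monocyte or macrophage-like cells by 3.97-fold in Gpi1 and 3.96-fold in Pkm. The same folds were 2.24 for Hk1 and 2.07 for Pdk1, and 6.65 for Slc2a1. Pkm, pyruvate kinase, which makes pyruvate, stood at 1460 ± 112 CPM in monocyte or macrophage-like cells, 922.4 ± 75.9 in T cell-like cells and 525.4 ± 34.8 in melanoma-like cells (SD, n = 4). Aldoa, the main aldolase, stood at 1137 ± 27, 1051 ± 135 and 475.3 ± 44.5 CPM in the same order. Gpi1, glucose-6-phosphate isomerase, was lower in melanoma-like cells (163.7 ± 12.8) than in monocyte or macrophage-like and T cell-like cells (455.2 ± 39.6 and 487.8 ± 35.4 CPM), between which the log2 difference was 0.09 ± 0.08 (adjusted p = 0.328; -0.10 on plain CPM). Pgam1, phosphoglycerate mutase, broke this order: it was 669.2 ± 28.6 CPM in melanoma-like cells and 371.7 ± 39.1 in T cell-like cells, a log2 difference of 0.52 ± 0.08 (adjusted p = 1.88e-05). Tpi1 (634.7 ± 22.8 against 606.3 ± 60.6 CPM) and Eno1 (259.6 ± 16.6 against 302.8 ± 16.9) differed by -0.26 ± 0.08 (0.07 on plain CPM) and -0.55 ± 0.08 on the log2 scale between melanoma-like and T cell-like cells. Tpi1 is triose phosphate isomerase and Eno1 the ubiquitous enolase.

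Among the remaining isoforms and regulators, Bpgm, which makes the side product bisphosphoglycerate, was highest in melanoma-like cells, at 61.5, 65.4, 60.7 and 65.6 CPM, against 13.5 to 16.4 in T cell-like and 5.76 to 9.40 in monocyte or macrophage-like cells. Eno3, the muscle enolase, was highest in T cell-like cells, at 37.3, 33.96, 30.1 and 34.8 CPM against 5.48 to 7.63 in melanoma-like cells. Eno2, the neuronal enolase, had 37 to 50 UMIs per library in melanoma-like cells and 1 to 2 in T cell-like cells. Pfkfb3 and Pfkfb4 make the activator of phosphofructokinase; Pfkfb3 stood at 38.1, 36.6, 40.6 and 44.4 CPM in monocyte or macrophage-like cells, against 6.36 to 13.9 in T cell-like and 4.53 to 7.39 in melanoma-like cells. Pfkfb4 stood at 11.92 ± 2.2 CPM there and at 3.04 or less on average in the other classes, and Pfkfb1 at under 2.1 CPM in every library and class. Aldoc, the brain aldolase, stayed between 5.59 and 15.5 CPM.

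The branch-point enzymes also differed. G6pdx, which opens the pentose phosphate pathway, stood at 41.9 ± 2.4 CPM in melanoma-like and 42.3 ± 5.61 in monocyte or macrophage-like cells, against 13.1 ± 1.93 in T cell-like cells. By the edgeR fit G6pdx was lower in melanoma-like than in monocyte or macrophage-like cells, at -0.52 ± 0.10 on the log2 scale (adjusted p = 0.000173). Pgd, the next dehydrogenase of that pathway, stood at 113.4 ± 20.4 CPM in monocyte or macrophage-like, 69.0 ± 3.29 in melanoma-like and 49.4 ± 5.46 in T cell-like cells. Between the last 2 classes Pgd was not called (0.15 ± 0.12, adjusted p = 0.259). The files' symbols Pgm1 (ENSMUSG00000029171) and Pgm2 (ENSMUSG00000025791) are now named the other way round, and the files' symbols are kept here. Pgm2, which links glucose 6-phosphate with glycogen, was the main phosphoglucomutase of all 3 classes, at 83.2% in melanoma-like, 76.5% in monocyte or macrophage-like and 68.0% in T cell-like cells. Pdha1, a subunit of pyruvate dehydrogenase, differed by -0.69 ± 0.09 on the log2 scale between melanoma-like and T cell-like cells (adjusted p = 6.6e-06).

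Monocyte or macrophage-like cells were not uniform. Of their clusters, 6 had at least 20 cells in every library and entered 1 fit: monocyte-like cells (cluster 12, 988 cells, led by Chil3), Ccl7 and Ccl12 macrophage-like cells (cluster 7, 611), Cd300e cells (cluster 6, 392), Vcam1 and Lpl macrophage-like cells (cluster 4, 819), Arg1 and Spp1 macrophage-like cells (cluster 5, 913, led by Mmp12, Cxcl3 and Mmp13) and Folr2 and Cbr2 macrophage-like cells (cluster 11, 984). The summed level of the 34 genes was 14610 ± 494 CPM in the Arg1 and Spp1 cluster and 3381 ± 305 in the Folr2 and Cbr2 cluster, with the other 4 clusters between 7407 and 8079 on average. Each cluster was set against the mean of the other 5. Clusters were formed on other genes of the same cells, so genes that vary together with those could follow them.

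In Arg1 and Spp1 macrophage-like cells 20 of the 30 members tested were higher and 4 lower, where 47.3% of the 8987 genes tested were called (24.6% higher, 22.8% lower); the median log2 difference was 1.22, beside -0.03 over all genes. Slc2a1 rose most, by 2.88 ± 0.08 on the log2 scale (adjusted p = 2.6e-29). It stood at 342.2, 296.3, 337.6 and 425.6 CPM in this cluster of S1 to S4, while no other cluster of the fit passed 142.2. Hk2 rose by 2.17 ± 0.15, to 123.5, 89.6, 137.3 and 84.5 CPM, and Pfkfb3 by 1.83 ± 0.12, to 80.9, 109.1, 100.7 and 80.7 CPM. Both lay above every other cluster of the fit in all libraries. Pgk1, phosphoglycerate kinase, rose by 1.76 ± 0.12 and Aldoa by 1.54 ± 0.07. Hk3 rose by only 0.51 ± 0.09, so that Hk2 held 40.9% and Hk3 41.6% of hexokinase UMIs here. The 4 lower members were Pfkfb4 (-1.03 ± 0.25), Eno3 (-0.75 ± 0.24), Pdha1 (-0.32 ± 0.13) and G6pdx (-0.29 ± 0.12).

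Folr2 and Cbr2 macrophage-like cells, which also led with Cd209f and Apoe, were at the other end, with 21 members lower and 3 higher, where 46.9% of all genes were called (24.1% higher, 22.8% lower) and the median was -0.98 beside 0.01. Slc2a1 differed by -2.89 ± 0.16 on the log2 scale, at 11.2, 16.03, 11.6 and 16.3 CPM. Slc16a3 differed by -2.28 ± 0.13, at 12.8, 16.03, 25.5 and 22.2 CPM, and Pfkp, Pkm and Pgam1 by -1.75 ± 0.15, -1.67 ± 0.10 and -1.66 ± 0.09. Each of these genes was lower here than in the other 5 clusters in all libraries, although S2 gave only 29 cells and 3 UMIs of Slc2a1. The 3 higher members were Pfkfb4 (0.60 ± 0.22), G6pdx (0.47 ± 0.12) and Pgm1 (0.44 ± 0.18). Pmel, Mlana, Dct and Tyrp1 stood at 2.86% to 5.74% of their melanoma-like level in this cluster and at 1.17% to 2.01% in the Arg1 and Spp1 cluster. By all 10 melanoma markers the order turned, with 300 to 476 CPM here and 524 to 678 there. The mitochondrial share of UMIs was higher here (4.15% to 5.48%) than in the Arg1 and Spp1 cluster (1.90% to 2.55%). The source of the tumour transcripts, and the part of these values in the differences, was not tested.

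Monocyte-like cells had 12 members higher and 6 lower, where 42.8% of all genes were called (22.4% higher, 20.4% lower). Pfkp was higher by 1.20 ± 0.10, Pdk3 by 1.09 ± 0.12, Slc16a3 by 1.05 ± 0.09 and Ldhb by 0.89 ± 0.22, and Pfkfb3 differed by -0.91 ± 0.17. Pfkp stood at 156.6, 203.6, 179.3 and 101.2 CPM in these cells. The Ccl7 and Ccl12 cluster had 6 higher and 0 lower (13.2% of all genes called, 8.91% higher), led by Aldoc (0.79 ± 0.25), Slc16a3 (0.67 ± 0.09), Hk3 (0.50 ± 0.10), Pkm (0.36 ± 0.08) and Gapdh (0.25 ± 0.07). The Vcam1 and Lpl cluster had 2 higher, Hk3 (0.51 ± 0.09) and Pdk1 (0.43 ± 0.12), and 4 lower (23.6% of all genes called, 13.6% higher and 10.0% lower), among them Slc2a1 and Slc16a3 (both -0.52 ± 0.10) and Eno1 (-0.25 ± 0.08). In the Cd300e cluster 1 member was higher, Slc16a1 (0.69 ± 0.27), and 8 were lower (31.9% of all genes called, 16.0% higher and 15.9% lower), with Ldhb at -0.82 ± 0.31, Pfkfb3 at -0.57 ± 0.18, Pfkp at -0.47 ± 0.13 and Slc16a3 at -0.41 ± 0.11. The count of called members in this cluster fell from 9 to 4 without S1 and to 0 without S3, and on plain CPM 5 were higher and 2 lower. The counts of the Vcam1 and Lpl and the Ccl7 and Ccl12 clusters fell from 6 to 3 without S1 and from 6 to 2 without S3, and the former had 3 higher and 3 lower on plain CPM. DESeq2 called 1 higher and 20 lower in the Folr2 and Cbr2 cluster and 21 higher and 2 lower in the Arg1 and Spp1 cluster.

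**Figure D3:**
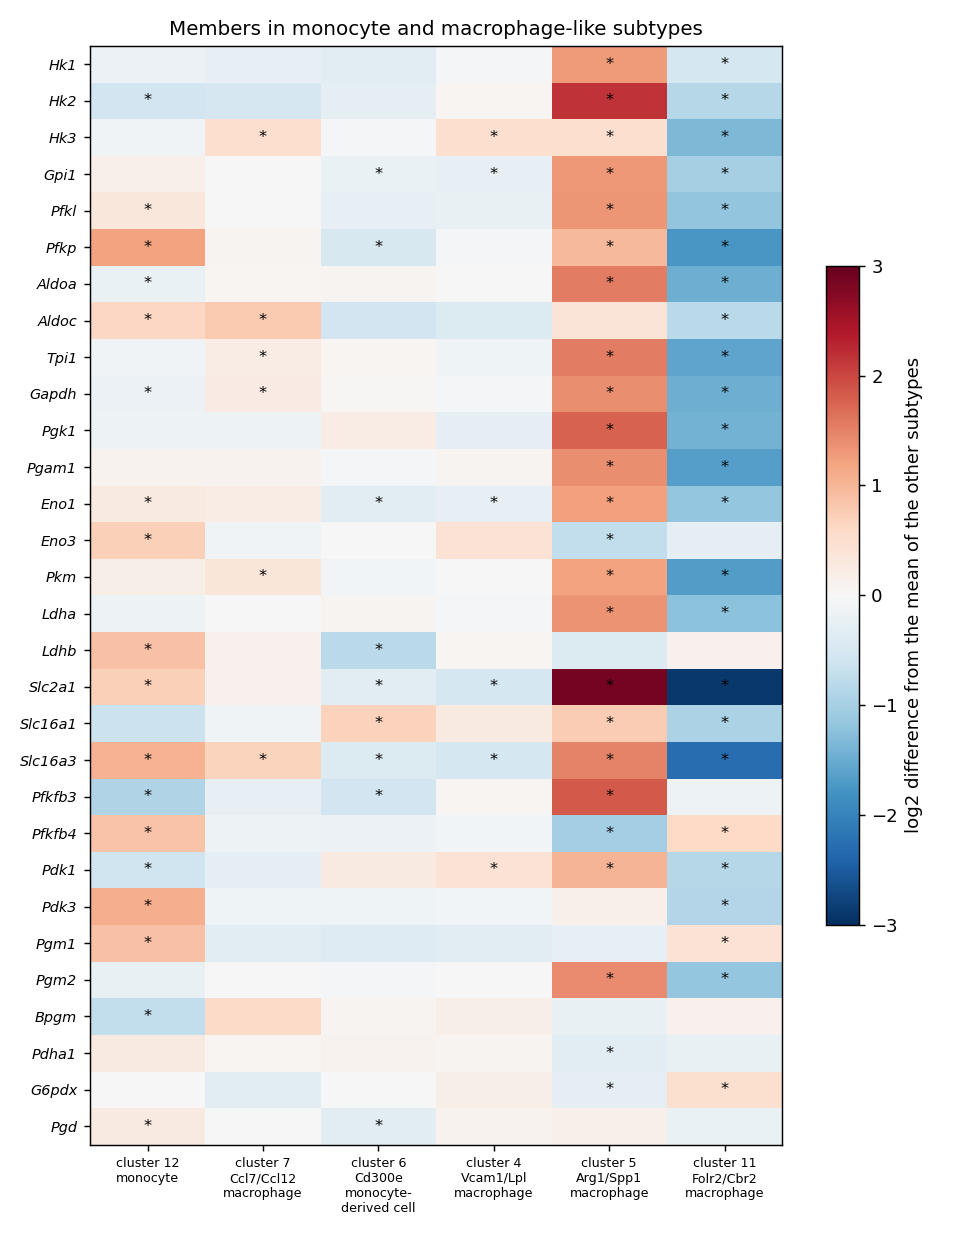
Log2 difference of each member in each of 6 monocyte or macrophage-like clusters (columns) from the mean of the other 5 (colour, red higher and blue lower); asterisks mark an edgeR adjusted p under 0.05. In the Arg1 and Spp1 column 20 members are red with an asterisk. In the Folr2 and Cbr2 column 21 are blue with an asterisk.

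Further clusters were too small in some library for the fit. A second cluster of the Arg1 and Spp1 type, led by Pf4 and Ppbp (cluster 17, 336 cells, 262 of them in S4 and 3 in S2), summed to 13021 ± 3307 CPM of the 34 genes, with Slc2a1 at 104.9, 286.3, 157.7 and 133.4 CPM. The value of S2 there rests on 5 UMIs. The Retnla and Ear2 cluster (cluster 3, 132 cells) summed to 7633 ± 1692 CPM.

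T cell-like cells differed less. CD8 T cell-like cells (cluster 9, 1009 cells) had 7 members higher and 4 lower than regulatory T cell-like cells (cluster 15, 208 cells), where 31.4% of 8644 genes were called (15.4% higher, 16.0% lower); the median was -0.02 beside 0.05. On plain CPM 4 were higher and 5 lower, and 6 in all were called without S1. Slc2a3 was higher in the CD8 cluster by 0.70 ± 0.20, Eno3 by 1.11 ± 0.25 and Slc16a1 by 1.17 ± 0.43. Slc2a3 stood at 51.8, 61.8, 52.3 and 47.7 CPM there and at 25.9, 41.1, 29.2 and 54.8 in the regulatory cluster. In S4 the order was thus turned, with the regulatory cluster higher. Slc16a1 rests on 0 to 6 UMIs per library in the regulatory cluster, and it was not called without S1, S2 or S4. The members higher in the regulatory cluster were Hk3 (-2.85 ± 0.49, CD8 less regulatory), Pfkfb4 (-2.78 ± 0.77), Slc16a3 (-0.73 ± 0.17) and Pkm (-0.30 ± 0.06). Beside them, the 37 monocyte or macrophage markers, all detected, summed to 5394 to 8880 CPM in the regulatory and 2106 to 2929 in the CD8 cluster. Hk3 in the regulatory cluster stood at 12.5% to 29.2% of its monocyte or macrophage-like level, where C1qa, C1qb, C1qc and Lyz2 stood at 9.87% to 16.4% of theirs. Slc16a3 there stood at 53.8% to 107.0% and Pfkfb4 at 49.8% to 73.8% of their monocyte or macrophage-like levels, above the share of those markers, Pfkfb4 from 2 to 5 UMIs per library. The part of macrophage RNA in these differences was not tested.

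Among the T cell-like clusters Slc2a3 was highest in a small CD8 cluster led by Gzmf and Gzmd, granzymes of strongly activated killer cells (cluster 13, 110 cells, 65 of them in S4). It stood at 195.5, 103.5, 149.3 and 102.8 CPM there, from 15, 8, 62 and 84 UMIs, above the other two in every library. With 9 and 6 cells in S1 and S2 it entered no test.

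Melanoma-like cells fell into 2 clusters that differed widely in these genes. Cluster 0 (166 cells) was led by Car6, Tinagl1, Car9 and Pmel and cluster 2 (1067 cells) by Gxylt2 and Cryab; Car9 is a carbonic anhydrase known as a hypoxia marker. The summed level of the 34 genes was 12561 ± 1108 CPM in cluster 0 and 3641 ± 197 in cluster 2. This comparison was chosen after the clusters had been seen. Of 33 members tested 23 were higher and 2 lower in cluster 0, where 35.8% of 11092 genes were called (19.4% higher, 16.4% lower), and the median was 1.61 beside -0.02. Pfkl rose by 3.24 ± 0.14, from 20.8, 19.7, 18.6 and 18.9 CPM in cluster 2 to 172.9, 140.5, 204.6 and 185.1 in cluster 0. Aldoa rose by 2.71 ± 0.11, from 345.8, 324.9, 272.8 and 308.8 CPM to 1628, 2005, 2129 and 2025. Neither gene overlapped between the clusters. Aldoc, Pfkp and Eno3 rose by 2.97 ± 0.25, 2.95 ± 0.16 and 2.71 ± 0.28. Slc2a1 stood at 72.9, 91.1, 89.5 and 87.8 CPM in cluster 0 and at 17.3, 18.2, 18.4 and 18.9 in cluster 2.

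The lower members were G6pdx (-0.78 ± 0.18) and Bpgm (-0.52 ± 0.16), and Slc2a3, Slc16a1, Pfkfb3, Pfkfb4, Pdha1, Pgd, Eno2 and Hk3 were not called. With Slc16a3 up by 2.36 ± 0.16 and Slc16a1 not called, MCT4 held 65.7% ± 5.35 of the lactate transporter pair in cluster 0 and 30.4% ± 3.1 in cluster 2. Melanoma markers were at full level in both clusters, at 10041 to 13219 CPM in cluster 0 and 8114 to 8674 in cluster 2. The 37 monocyte or macrophage markers summed to 1337 to 2499 CPM in cluster 0 and 652 to 1511 in cluster 2, with Ear2 at 0 in cluster 0, against at least 36841 in monocyte or macrophage-like cells. Other values moved with cluster 0: all 15 dissociation and immediate-early genes were higher there, with a median of 2.02 and with Fosb at 5.24 ± 0.19, the mitochondrial share was 3.32% to 4.25% against 5.65% to 5.73%, and the median depth in S1 was 10168 UMIs against 30340.5. Their part in the differences was not tested.

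**Figure D4:**
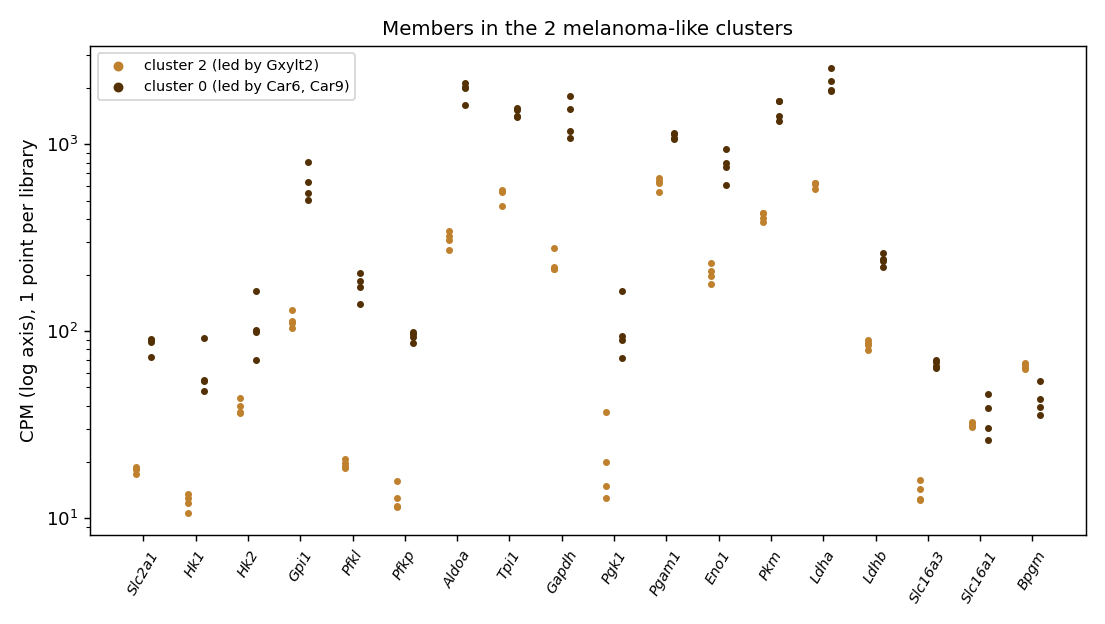
CPM on a log axis of 18 members in the melanoma-like clusters, 1 point per library (pale, cluster 2; dark, cluster 0). Every gene shown except Slc16a1 and Bpgm lies higher in cluster 0 in all 4 libraries.

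Members higher in the Arg1 and Spp1 macrophage-like cluster and members higher in melanoma-like cluster 0 had 17 genes in common, which are 85% of the 20 and 77.3% of the 22 tested in both comparisons (73.9% of all 23). Over all 8384 genes tested in both comparisons 576 were higher in both, 28.3% of those higher in the macrophage-like cluster and 31.2% of those higher in cluster 0. Slc2a1 (2.88 and 2.30), Pgk1 (1.76 and 2.43), Tpi1 (1.54 and 1.54) and Aldoa (1.54 and 2.71) had the largest of the smaller log2 difference; the others were Slc16a3, Hk2, Pgm2, Gapdh, Ldha, Pfkl, Gpi1, Hk1, Eno1, Pkm, Pdk1, Pfkp and Pgam1. Of 27 genes of the hypoxia-inducible factor pathway and hypoxia response, 21 were higher and 1 lower of 25 tested in the Arg1 and Spp1 cluster (median 1.75), and 19 were higher and 1 lower of 27 in melanoma-like cluster 0 (median 1.14), where 24.6% and 19.4% of all genes were higher. The largest were Adm (5.02 ± 0.29), a vessel-dilating peptide, Egln3 (4.29 ± 0.19), an oxygen-sensing hydroxylase, and Hilpda (3.77 ± 0.17), a lipid-droplet protein, in the macrophage-like cluster, and Car9 (6.05 ± 0.16), Adm (5.69 ± 0.64) and Bnip3 (2.90 ± 0.20), a mitophagy receptor, in cluster 0. In the Folr2 and Cbr2 cluster 15 of the 25 were lower and 4 higher.

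Because these genes moved together and several are known targets of hypoxia-inducible factor, the 250 bases before the start sites of the 3 leading genes with a RefSeq promoter entry are shown, with those of Ldha, which held the most matches. Capitals mark the core letters that factor binds, ACGTG or GCGTG, searched on both strands, so that CACGT and CACGC are the same letters on the other strand. Coordinates are GRCm38.p6 and each sequence runs 5′ to 3′ on the gene's strand: Slc2a1 at chr4:119108495-119108744 (plus), Pgk1 at chrX:106186850-106187099 (plus), Tpi1 at chr6:124814159-124814408 (minus) and Ldha at chr7:46845554-46845803 (plus).
Slc2a1: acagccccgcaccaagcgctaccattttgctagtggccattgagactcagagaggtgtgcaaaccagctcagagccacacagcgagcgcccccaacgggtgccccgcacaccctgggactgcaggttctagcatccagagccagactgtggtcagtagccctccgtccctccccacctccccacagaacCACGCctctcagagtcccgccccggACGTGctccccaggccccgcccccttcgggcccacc
Pgk1: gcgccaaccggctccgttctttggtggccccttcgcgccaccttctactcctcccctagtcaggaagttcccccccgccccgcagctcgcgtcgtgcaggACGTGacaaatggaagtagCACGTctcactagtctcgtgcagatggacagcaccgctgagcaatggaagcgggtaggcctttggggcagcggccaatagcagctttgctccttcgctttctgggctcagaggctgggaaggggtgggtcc
Tpi1: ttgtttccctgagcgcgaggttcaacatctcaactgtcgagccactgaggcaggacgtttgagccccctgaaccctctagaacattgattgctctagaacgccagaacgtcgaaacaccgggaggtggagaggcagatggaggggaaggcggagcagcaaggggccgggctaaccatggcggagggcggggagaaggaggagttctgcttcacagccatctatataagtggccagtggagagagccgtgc
Ldha: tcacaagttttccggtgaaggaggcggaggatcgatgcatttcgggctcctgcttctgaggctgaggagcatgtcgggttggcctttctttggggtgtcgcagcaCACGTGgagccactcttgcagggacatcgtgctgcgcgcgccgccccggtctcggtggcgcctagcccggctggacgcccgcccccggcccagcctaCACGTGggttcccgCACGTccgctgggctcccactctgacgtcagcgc
Slc2a1 and Pgk1 each held 2 matches, Tpi1 0 and Ldha 5, of which 4 come from 2 copies of the palindrome CACGTG, the E-box of other factors, counted on each strand. Of 33 members with an entry 29 held at least 1 match in some window (87.9%), against 60.8% of the 9703 genes with an entry tested between the classes and 41.5% of all 27025 genes. At least 2 matches were held by 48.5%, 31.1% and 18.7%. These shares count the best window of each gene, which favours genes with several windows. Of single windows, 74.0%, 54.7% and 38.6% held a match. Tpi1 and Gpi1 rose in both clusters with no match in their windows. The 4 members lower in the Arg1 and Spp1 cluster all held matches, with 3 in Pdha1 and 1 each in G6pdx, Eno3 and Pfkfb4. Matches were thus not confined to the members that rose. The windows end at RefSeq start sites, which can differ from the GENCODE gene starts. GENCODE starts Slc2a1 at chr4:119108711 and Tpi1 at chr6:124814296, both inside their windows, and Ldha at chr7:46841475, before its window. For Tpi1 the bases before the GENCODE start were thus searched only in part. A match describes the letters and is no evidence of binding.

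Genotype was compared within each class over the 2 Adar1-null and 2 control libraries. Adar itself stood at 13.6, 16.1, 15.4 and 14.9 CPM over all cells and at 9.40, 12.8, 11.4 and 12.95 in melanoma-like cells, and 3′ tags do not read a deletion elsewhere in the gene, so this checks nothing. Over all cells, 0 of 34 members were called by edgeR (0.0% of 13466 genes), with 6 at an unadjusted p under 0.05, and DESeq2 called 1 higher and 1 lower. Within T cell-like cells (0.0106% of 9450 genes called), CD8 T cell-like cells of clusters 9 and 13 (0.0443% of 9033, 0.0111% higher and 0.0332% lower), monocyte or macrophage-like cells (0.0% of 10969) and the clusters led by Vcam1 (0.0% of 8970), Mmp12 (0.0% of 7549) and Chil3 (0.0% of 7282), 0 members were called by edgeR, with 2, 2, 1, 1, 1 and 2 at an unadjusted p under 0.05. DESeq2 called 1 in each of the T cell-like units and 0 in the monocyte or macrophage-like units. On simulated counts for monocyte or macrophage-like cells, 90.0% of genes changed by 1 on the log2 scale were recovered, and smaller changes were not simulated. Those counts were drawn with a fixed spread for all genes, not the spread of these libraries, and only genes above 20 CPM were changed. The recovered share therefore cannot tell how large a genotype change would have been called here. Both Adar1-null libraries lay on 1 side of both controls for 20 of 34 members over all cells (49.0% of all genes), 11 of 32 in melanoma-like (32.0%), 11 of 31 in T cell-like (36.8%) and 12 of 32 in monocyte or macrophage-like cells (35.6%). In the narrower units it was 10 of 30 in CD8 T cell-like cells (37.0%), 5 of 30 in the Vcam1 and Lpl (30.7%), 9 of 27 in the Arg1 and Spp1 (30.3%) and 8 of 28 in the monocyte-like cluster (32.6%). Within the classes these shares were near the background.

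In melanoma-like cells 1 member was called, lower, among 28 of 11392 genes in all (0.246%; 0.123% higher and 0.123% lower). Gapdh, glyceraldehyde-3-phosphate dehydrogenase (chr6:125161715-125166467, GRCm38), stood at 335.2 and 274.2 CPM in the Adar1-null libraries and 398.9 and 392.2 in the controls. The log2 change was -0.38 ± 0.08 (adjusted p = 0.0319), and the groups did not overlap. With 1 library left out the change ran from -0.54 (without S1) to -0.24 (without S2). The call was lost without doublet removal (adjusted p = 0.31) and with cells gated one by one on markers (adjusted p = 0.0758). It was also lost with equal numbers of cells (adjusted p = 0.0601) and with DESeq2 (adjusted p = 0.0576). By DESeq2 the called member was instead Pgk1, at 0.85 (adjusted p = 0.0481). Gapdh was also higher in melanoma-like cluster 0 than in cluster 2, by 2.65 ± 0.10. In S1 to S4 cluster 0 gave 1289579, 647915, 1217297 and 842859 of the 10425871, 9437942, 9060913 and 11507144 melanoma-like UMIs. The part of this mix in the Gapdh change was not tested.

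Gapdh was also lower in both Adar1-null libraries in the host classes, where it was not called. It stood at 595.2 and 621.7 against 833.1 and 868.2 CPM in T cell-like cells (-0.54 ± 0.11, adjusted p = 0.152) and at 748.8 and 746.0 against 868.2 and 907.6 in monocyte or macrophage-like cells (-0.25 ± 0.15, adjusted p = 0.851). Pgk1 (chrX:106187100-106203699) went the other way. It stood at 43.6 and 53.0 against 23.3 and 27.8 CPM in monocyte or macrophage-like cells (0.91 ± 0.18, adjusted p = 0.851), at 40.3 and 56.8 against 33.1 and 28.3 in T cell-like cells (0.62 ± 0.19, adjusted p = 0.413) and at 29.3 and 45.5 against 20.9 and 20.3 in melanoma-like cells (0.85 ± 0.30, adjusted p = 1.0). In melanoma-like cells Pgk1 was called by edgeR without the filter on low counts (0.85, adjusted p = 3.14e-08). Its change there was 1.13 without S1, 0.51 without S2, 0.87 without S3 and 0.82 without S4. Fits without a library leave 1 library in a genotype group, which shows no spread of its own, so only sizes are given. In T cell-like cells Pgk1 ranged from 0.34 without S2 to 0.84 without S1, and Gapdh stood at -0.58 without S3. Of 30 members tested in all 3 classes, Gapdh and Pgk1 were the 2 with Adar1-null levels beyond both controls in the same direction in each class, as 2.21% of 8692 genes did. The same held within the Vcam1 and Lpl, the Arg1 and Spp1 and the monocyte-like cluster, with log2 values of Pgk1 of 0.83 ± 0.24, 0.77 ± 0.23 and 0.92 ± 0.28 and of Gapdh of -0.37 ± 0.18, -0.31 ± 0.22 and -0.40 ± 0.17, none called.

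**Figure D5:**
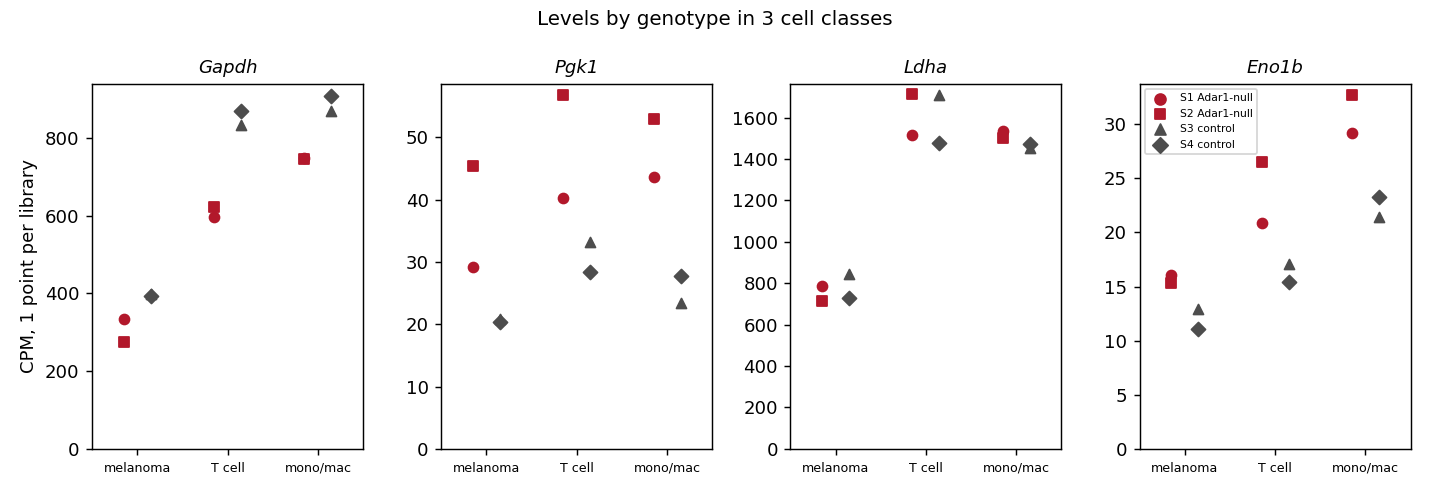
CPM of Gapdh, Pgk1, Ldha and the Eno1 retrocopy Eno1b in each library (red, Adar1-null; grey, control) in melanoma-like, T cell-like and monocyte or macrophage-like cells. Gapdh lies lower and Pgk1 and Eno1b higher in both Adar1-null libraries in every class, while Ldha overlaps in melanoma-like and T cell-like cells.

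Gapdh, Pgk1, Aldoa, Pgam1, Eno1 and Ldha have near-identical retrocopies or processed pseudogenes elsewhere in the genome, and how reads that match several copies were counted is not given in the sources used here, so their levels are uncertain. Eno1b, an intronless copy of Eno1 and no member, stood at 21.2 and 23.7 against 17.4 and 17.9 CPM over all cells and was likewise higher in both Adar1-null libraries in all 3 classes. Library preparation and sequencing run are not named in the labels, so a difference between libraries and one between tumour genotypes cannot be told apart, in tumour cells or in host leukocytes.

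Of the other members, none was called by genotype with edgeR and all 4 libraries. Over all cells Slc2a1 differed by -0.47 ± 0.16 (adjusted p = 0.54), with 57.7 and 56.3 CPM in the Adar1-null and 64.6 and 85.9 in the control libraries; S4, the higher control, also had the most Arg1 and Spp1 macrophage-like cells (413 against 186, 115 and 199). Within that cluster Slc2a1 differed in the same direction, by -0.28 ± 0.22, and was not called. The part of the mix of cells in the difference over all cells was not tested. The 3 largest changes within the cluster were those of Pgk1, Gapdh and Pdha1 (-0.30 ± 0.29). Hk2 in melanoma-like cells differed by -0.22 ± 0.09 (adjusted p = 0.724), Slc16a3 in T cell-like cells by -0.24 ± 0.16 (adjusted p = 0.865) and in CD8 T cell-like cells by -0.23 ± 0.17. In monocyte or macrophage-like cells Pfkp differed by 0.52 ± 0.33 and Eno1 by 0.31 ± 0.15 (both adjusted p = 0.851). Pgm1 differed by -0.61 ± 0.29 in monocyte-like cells, and Pfkp by 0.44 ± 0.54 and Eno1 by 0.40 ± 0.20 in Vcam1 and Lpl cells. These values rest on few libraries. With 1 library left out, Slc2a1 over all cells ran from -0.67 (without S3) to -0.23 (without S4). Pfkp in monocyte or macrophage-like cells ran from 0.15 (without S4) to 1.01 (without S3). Slc16a3 in T cell-like cells ran from -0.43 to -0.08 and Hk2 in melanoma-like cells from -0.32 to -0.12. Pdha1 in Arg1 and Spp1 cells ran from -0.66 to -0.04 and Pgm1 in monocyte-like cells from -0.99 to -0.39. In Vcam1 and Lpl cells Eno1 ran from 0.16 to 0.63 and Pfkp from -0.06 to 1.17 (without S3). A test of whether the genotype change differed between classes called 0 members for T cell-like less melanoma-like (0.0% of all genes), 0 for monocyte or macrophage-like less melanoma-like (0.0%) and 0 for monocyte or macrophage-like less T cell-like cells (0.0932%; 0.0854% higher and 0.00777% lower), with 0, 1 and 4 members at an unadjusted p under 0.05 by edgeR and 0 called by DESeq2.

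The wider pathway was described by lists beside the members. Between melanoma-like and T cell-like cells 77.6% of all genes were called, 40.2% higher and 37.5% lower, and the counts of these lists are to be read against those shares. Of 21 other glycolytic genes 9 could be tested between classes, with 3 higher and 2 lower in melanoma-like than in T cell-like cells. Gpd1, which makes glycerol 3-phosphate, had 57 to 91 UMIs per library in melanoma-like cells and 0 in T cell-like cells, and Galm (2.89 ± 0.33), which interconverts glucose anomers, and Pfkfb2 (2.15 ± 0.54) were the next. Of 20 other transporters and their chaperones 13 were tested, with 2 higher and 7 lower. Slc2a5, the fructose transporter GLUT5, stood at 25.1, 27.97, 26.3 and 27.4 CPM in melanoma-like cells and at 2 UMIs or fewer over all T cell-like cells together, Slc2a4 had 14 to 17 UMIs per library against 0, and Arrdc4, a regulator of glucose uptake, differed by -3.71 ± 0.22. Me1, malic enzyme, led the 11 tested pyruvate genes, 5 of them higher and 3 lower, at 66.6, 71.5, 61.1 and 68.4 CPM against at most 2 UMIs per library in T cell-like cells. Of 14 tested pentose phosphate and glycogen genes 5 were higher and 7 lower, with Tkt (-3.03 ± 0.09) and Taldo1 (-2.58 ± 0.07), both of the non-oxidative pentose branch, and Gys1 (2.01 ± 0.20), glycogen synthase, ahead. In Arg1 and Spp1 macrophage-like cells 6 of the 14 were higher, 4 lower and 4 not called, with a median of 0.05 beside -0.03 over all genes; Gys1 was higher by 2.31 ± 0.15 and Gbe1, the glycogen branching enzyme, by 2.23 ± 0.18.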

How the data were processed

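RNA was measured in 4 libraries of CD45-selected cells. The authors deposited 1 matrix of raw UMI counts per gene and cell, not normalized. The submitters' processing notes name Seurat 2.2.0, Cell Ranger and mm10; the sources used here give no annotation, aligner setting or earlier filter. Kept cells totalled 23309001 to 32616965 UMIs per library. A minimum of 500 genes and a maximum of 10% mitochondrial UMIs removed 161 of 8838 barcodes, and a doublet score above 0.1 another 115. Clustering (scanpy 1.11.5) used 2000 variable genes, 30 components, 20 neighbours and Leiden resolution 1.0, without the members, the pathway lists or dissociation genes. Classes needed at least 3 detected markers, and subtype markers were counted as class markers after the clusters had been seen. By the mean of class markers alone, clusters 4, 6 and 12 scored highest as conventional dendritic cell 1 and cluster 3 as conventional dendritic cell 2. These clusters were named monocyte or macrophage-like from the markers among their 10 leading genes. Cluster 10 (275 cells, haemoglobin with Cd209a) stayed unnamed, so the planned dendritic cell comparison was not made. Free RNA was not corrected.

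Counts summed by class in each library were tested with edgeR 4.0.16 (TMM, filterByExpr, robust quasi-likelihood, Benjamini-Hochberg at 0.05 over all genes tested). Genotype fits needed 50 cells in every library and had no covariate; class and subtype fits needed 20 and had a library term. SE is the absolute log2 change divided by the square root of F. The model was tested on simulated data. DESeq2 1.42.0, other scaling, filters and cell choices were alternatives; plain CPM scaling was added after seeing the data. Values per library are printed for members that lead a family, were called by genotype or differed by 20 points in share; the 3 largest changes per genotype comparison at a mean of at least 20 CPM and the 5 largest called per subtype comparison were named. The members and lists were chosen with earlier results of these data known. Coordinates are GENCODE vM21 and promoters RefSeq, both GRCm38.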

Additional observations from a re-analysis of the deposited data

How the results depend on the processing

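No paired analysis was possible because the barcode names carry a group but no replicate number, which concerns the genotype comparisons; classes and subtypes were compared within libraries. With 1 library of a group left, its spread was taken to be that of the others. Of the recomputed counts, 204 stayed within 1.5 times and 28 did not. Many of the 204 are counts of 0 that stayed 0. The main count was 0 in every genotype comparison except melanoma-like cells. It was also 0 in every test of the genotype change between classes. For genotype, DESeq2 called 2 members over all cells, 1 in T cell-like and 1 in CD8 T cell-like cells. Without the low-count filter 2 were called in melanoma-like, 2 in T cell-like and 2 in CD8 T cell-like cells. In melanoma-like cells 0 were called by edgeR without doublet removal, with the per-cell gate or with equal cell numbers. Leaving out 1 library at a time gave 0 to 1 over all cells (1 without S3), 1 to 2 in melanoma-like cells (2 without S1, S3 or S4), 0 to 1 in T cell-like (1 without S1 or S3) and CD8 T cell-like cells (1 without S1), 0 to 1 in clusters 4 and 12 and for the difference between monocyte or macrophage-like and T cell-like cells (1 without S3 in each). Among subtypes it gave 3 to 6 in cluster 4, 0 to 7 in cluster 6, 2 to 5 in cluster 7 and 6 to 9 for cluster 9 against cluster 15. Without the library term cluster 6 had 5, cluster 7 had 3 and cluster 9 against cluster 15 had 5, and DESeq2 gave 7 for the last. Sign turned for Pfkp by genotype in cluster 4 (-0.06 to 1.17 with 1 library left out, called at 1.17), for Aldoc between melanoma-like and monocyte or macrophage-like cells (-0.12 to 0.04; 0.46 and called on plain CPM), and, between monocyte or macrophage-like and T cell-like cells, for Pgk1 (-0.02 to 0.17; -0.01 with the gate, -0.12 on plain CPM) and Pfkp (-0.27 to 0.06; 0.04 with the gate). On plain CPM it also turned for Tpi1 (0.07) and Pdk1 (0.12) between melanoma-like and T cell-like cells, Hk2 (0.12) and Pdk3 (0.05) between melanoma-like and monocyte or macrophage-like cells, and Gpi1 (-0.10) and Ldha (-0.10) between monocyte or macrophage-like and T cell-like cells, by the removal of the scaling itself. The cause of the other shifts was not tested. With 2 libraries per genotype, changes under 1 on the log2 scale were not simulated, and members at a few UMIs per library carry large counting error.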
